A study of Homo sapiens with 6 samples.

Results

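Ribosome biogenesis and nucleolar factors were examined in Caco-2, a line derived from a human colon carcinoma whose cells take on features of enterocytes in culture. The list held 37 genes, taken by name and not by their values, though earlier results of these data were known. Each gene was read on the feature that carries its symbol alone and has the highest mean of the 6 arrays. Of these genes 31 were measured, out of 33616 genes tested in the series. NOP56, DKC1, WDR43 and BOP1 lay only on features that carry several symbols, and EBNA1BP2 and GNL3 were unnamed here, so that these 6 were not analysed here. By their labels, 3 arrays have the genotype NC, and 3 have the genotype apoM and the group name Overexpression. Both groups are the same cell line, and the sources used here do not state the vector, the time after its delivery or whether the cells were 1 clone. The labels do not say whether replicate arrays stand for separate cultures, so that the spread behind each p-value may be technical. The comparison asks which transcripts differ when apoM, an apolipoprotein that carries sphingosine-1-phosphate, is raised.

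Ribosomes are built in the nucleolus, where RNA polymerase I transcribes the precursor of the large rRNAs. Small nucleolar ribonucleoproteins (snoRNPs) of the box C/D and box H/ACA classes then methylate and pseudouridylate that precursor. The small subunit processome and a separate series of factors cut, fold and export the pre-40S and pre-60S particles. In dividing epithelial and carcinoma cells this pathway is known as a target of MYC, which binds the E-box with its partner MAX.

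The E-box, with the letters CACGTG, was searched in RefSeq promoter windows of 250 bases before to 50 bases after each gene start (GRCh38.p14). The motif is its own reverse complement, so that 1 search covers both strands. It was found in 2548 of 35116 promoters of all genes (7.26%), and in 19 of the 38 promoters of the 32 listed genes that have one. By gene it was present for 18 of these 32 (56.2%). The same share was 12.5% over protein-coding genes above the median level, 26.4% over 87 other ribosome biogenesis genes and 6.35% over 63 cytosolic ribosomal protein genes. These shares are a description of letters; base composition, which also sets how often a motif occurs in promoters, was not tested. NOP58, RRP12, RRS1, BOP1 and NOLC1 had no promoter in the table. Of the 21 E-boxes, 9 lay before the start, 7 of them within 100 bases, and 12 lay after it. The sites of PES1, LYAR, NOP10 and MRTO4 are shown because these genes are among the 8 with the smallest p-values described below. Sites of FBL, DDX21 and UTP18 are shown because these genes carry the same motif and had smaller changes, between -0.15 and 0.20. For UTP18 the site at -89 is shown, and its other site, at 5, is not. Capitals mark the E-box, and positions count its first base from the gene start, which is +1.
PES1, at 14 (chr22:30591880-30591909, minus strand): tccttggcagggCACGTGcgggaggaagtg
LYAR, at -64 (chr4:4290068-4290097, minus strand): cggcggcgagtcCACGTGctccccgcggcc
NOP10, at -170 (chr15:34343289-34343318, minus strand): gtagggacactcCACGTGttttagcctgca
NOP10, at -11 (chr15:34343130-34343159, minus strand): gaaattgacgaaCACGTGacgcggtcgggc
MRTO4, at 15 (chr1:19251807-19251836, plus strand): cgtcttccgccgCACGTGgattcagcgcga
FBL, at 7 (chr19:39846356-39846385, minus strand): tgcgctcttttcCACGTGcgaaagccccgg
DDX21, at -31 (chr10:68956604-68956633, plus strand): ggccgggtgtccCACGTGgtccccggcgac
UTP18, at -89 (chr17:51260445-51260474, plus strand): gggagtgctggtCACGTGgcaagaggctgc

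LYAR and DDX21 each have a second promoter in the table that does not hold the letters. The other 4 of the 8 genes, NOP16, BRIX1, NHP2 and NPM3, have no E-box in their windows. The 81 bases before the start of NPM3 and NHP2 are shown for contrast.
NPM3 (chr10:101783447-101783527, minus strand): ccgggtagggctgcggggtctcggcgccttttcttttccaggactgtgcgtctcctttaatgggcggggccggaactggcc
NHP2 (chr5:178153886-178153966, minus strand): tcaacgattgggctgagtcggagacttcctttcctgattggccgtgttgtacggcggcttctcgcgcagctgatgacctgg

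**Figure D1:**
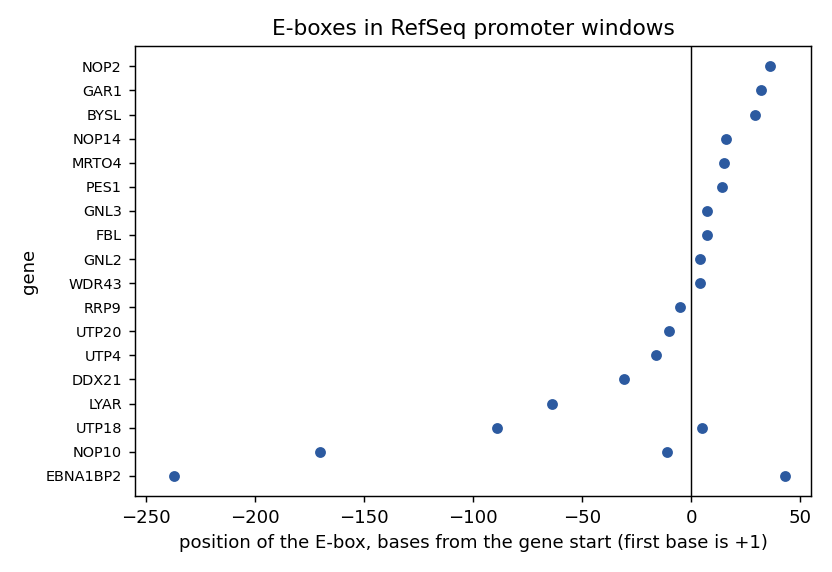
Position of each E-box in the RefSeq promoter windows of the 18 listed genes that hold one, in bases from the gene start, with negative values before the start. Genes with more than 1 start are drawn on 1 line, each site counted from its own start, and 12 of the 21 sites lie after the start.

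Values are log2 signals as deposited, with array medians from 4.48 to 4.53. Precision is limited by having 3 arrays a group. APOM, the overexpressed gene, read 5.38, 5.84 and 6.41 in NC, in the order of the replicate numbers that is kept throughout, and 15.49, 15.56 and 15.85 with apoM. All apoM arrays lay above all NC arrays, with a log2 change of 9.76 (SE 0.25, limma adjusted p = 1.34e-07). Of 12 fixed markers of intestinal epithelium, 11 lay above the median level of all genes (5.32), EPCAM at 17.39 and VIL1 at 13.12, and the one below was GPA33. These markers ran from 5.09 for GPA33 to 18.34 for KRT8, with APOA1 at 5.99 and KRT20 at 7.23. Their summed log2 level ran from 151.5 to 155.0 in NC and 154.4 to 157.0 with apoM, and 3 members, KRT8, KRT18 and KRT19, had an unadjusted p under 0.05 and a higher level with apoM. Markers of fibroblasts, leukocytes and endothelium had median levels of 5.41, 5.89 and 4.38. Of these markers, 3 of 6 measured for fibroblasts (COL1A1 at 9.17), 4 of 6 for leukocytes and 2 of 5 for endothelium lay above the median level of all genes. Their summed levels ran from 35.3 to 36.2, from 31.0 to 34.0 and from 23.0 to 23.4 in NC. With apoM they ran from 35.2 to 36.2, from 32.6 to 32.9 and from 23.1 to 24.2. The part of these markers in the results below was not tested. Fewer cells of a kind and less RNA per cell cannot be told apart in such samples.

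None of the 31 measured ribosome biogenesis genes passed the adjusted threshold of 0.05 in limma, where 2.06% of all genes did. The smallest adjusted p was 0.0588, for PES1. At an unadjusted p under 0.05 were 8 genes, all higher with apoM (25.8%), and none lower, where 14.3% of all genes were higher and 4.85% lower at that level. The 8 were PES1, LYAR, NOP10, NOP16, BRIX1, NHP2, NPM3 and MRTO4. The median log2 change of the 31 genes was 0.23, against 0.09 over all genes tested, and single genes ran from -0.17 for NOP58 to 0.81 for NOP10. A change above 0 was seen in 25 of 31 genes, against 62.9% of all genes and 58.6% of protein-coding genes brighter than the median gene. It was seen in 23 of the 31 with quantile normalization and in 20 with the trend of change with gene span removed. In 9 genes every apoM array lay above every NC array (29%, against 17.3% of all genes), and in 2 every apoM array lay below (against 7.08%). Of the 10839 protein-coding genes brighter than the median gene, a group closer in level, 16.1% were higher at an unadjusted p under 0.05 and 19.9% had all apoM arrays above. No test of the list as a whole was made.

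The SD within NC was larger than within apoM in 24 of the 31 genes and in 52.8% of all genes. NC replicate 3 was the highest of the 3 NC arrays in 25 of the 31 genes and in 44.1% of all genes. With each gene centred on its own mean, the median of the 31 genes was -0.17, -0.27 and 0.10 in NC. It was 0.08, 0.15 and 0.13 with apoM, so that NC replicate 3 lay among the apoM arrays. Over all genes tested these medians stood at -0.08, -0.07 and 0.002 in NC. With apoM they stood at 0.05, 0.05 and 0.04. Without NC replicate 3 the median change was 0.35, against 0.11 over all genes tested. In that fit 4 genes passed the adjusted threshold, NOP10, NOP16, NPM3 and PES1, where 7.01% of all genes passed. Without NC replicate 2 the median was 0.11, against 0.08 over all genes tested, and none of the 31 passed, with 3 at an unadjusted p under 0.05. Without NC replicate 1, or without apoM replicate 1, 2 or 3, the genes at that level numbered 4, 5, 5 and 7. Without NC replicate 3 they numbered 13. The share of all genes at that level was not taken in these fits, which have fewer arrays, so that these counts cannot be read as particular to the list. Over the same fits the genes past the adjusted threshold, among all genes, ran from 2 to 2358.

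**Figure D2:**
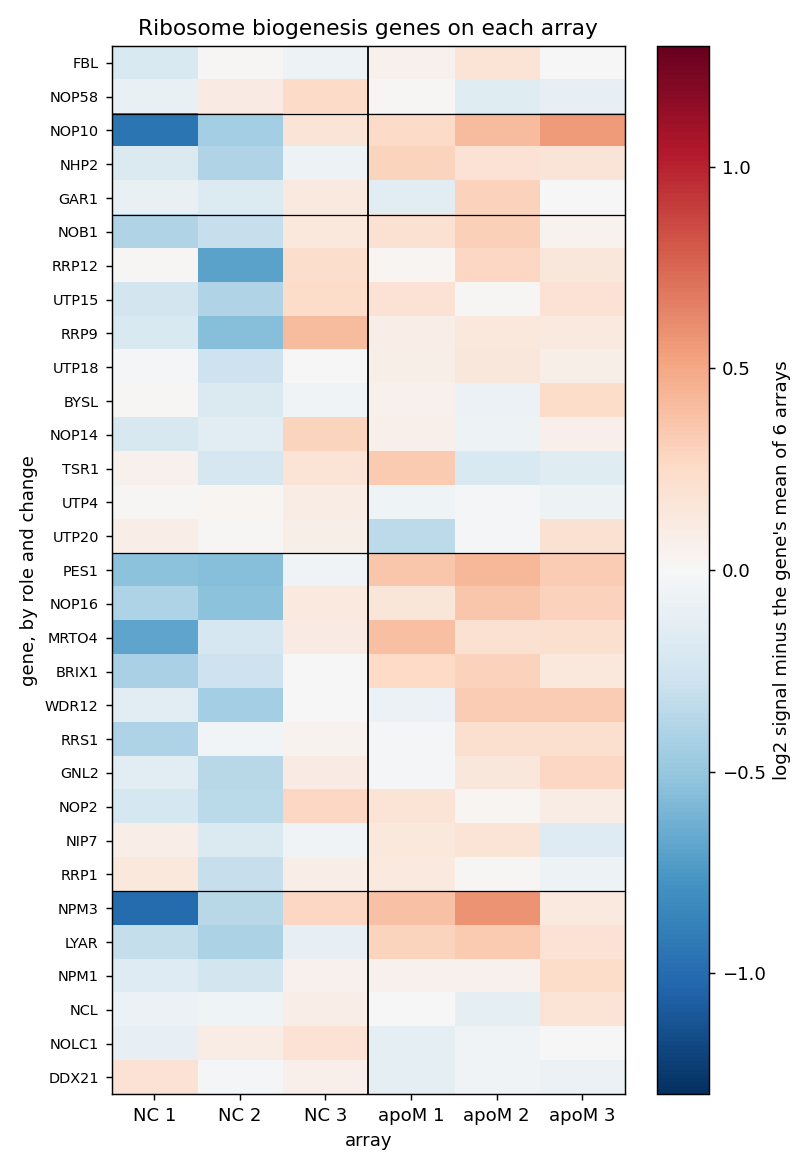
Log2 signal of the 31 measured genes on each of the 6 arrays, as the deviation from the gene's mean (colour), with lines between the role groups and between NC and apoM. The lowest array was NC replicate 2 for 17 genes and NC replicate 1 for 8, while NC replicate 3 was the lowest for 0 of them.

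Factors of the pre-60S particle had changes above 0 in all 10 measured genes. None passed the adjusted threshold, and 4 were higher at an unadjusted p under 0.05. Over all genes 14.3% were higher at that level and 62.9% had a change above 0. The median change of the 10 was 0.33, with a range from 0.05 for RRP1 to 0.75 for PES1. Differences between the role groups were not tested. PES1, the pescadillo protein that works with BOP1 and WDR12 in cutting the internal spacer of the precursor, read 9.50, 9.48 and 9.99 in NC and 10.40, 10.46 and 10.37 with apoM. The groups did not overlap, and NC replicate 3 lay between the other NC arrays and the apoM arrays. The log2 change was 0.75, a 1.68-fold difference (SE 0.18, 95% interval 0.35 to 1.15, limma adjusted p = 0.0588). WDR12, its partner in the same complex, read 10.65, 10.35 and 10.79 in NC and 10.71, 11.12 and 11.12 with apoM. The groups overlapped through apoM replicate 1, and the change was 0.39 (SE 0.19, limma adjusted p = 0.297). Beside the fit without NC replicate 3 (adjusted p = 0.0137), PES1 passed the threshold of 0.05 in 3 other versions of the fit. The adjusted p was 0.0327 when only genes above the median level were tested, where 10.3% of genes passed. It was 0.0428 with eBayes trend and robust, where 3.72% passed, and 0.0320 with array weights, where 4.99% passed. PES1 did not pass when any array other than NC replicate 3 was left out (limma adjusted p from 0.114 to 0.191). Nor did it pass with the replicate number as a block (0.102), with the gene span trend removed (0.0601) or with quantile normalization (0.0524).

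NOP16, a nucleolar protein of early 60S assembly, read 9.92, 9.80 and 10.45 in NC and 10.48, 10.68 and 10.63 with apoM. The groups did not overlap, but NC replicate 3 lay just under the lowest apoM array. Its change was 0.54 (SE 0.19, limma adjusted p = 0.165). BRIX1, which in yeast helps to fold the large subunit rRNA, read 13.68, 13.83 and 14.11 in NC and 14.36, 14.40 and 14.23 with apoM. Every apoM array lay above every NC array, with a change of 0.46 (SE 0.17, limma adjusted p = 0.168). MRTO4, whose yeast counterpart holds the place of the stalk protein P0, read 7.59, 8.06 and 8.38 in NC and 8.66, 8.47 and 8.49 with apoM. These groups were also apart, by less than the spread within NC, and the change was 0.53 (SE 0.21, limma adjusted p = 0.200).

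The remaining 60S factors had smaller changes and overlapping groups. RRS1, which takes part in docking the 5S particle, read 7.29, 7.65 and 7.74 in NC and 7.67, 7.90 and 7.90 with apoM. GNL2, a GTPase of the pre-60S particle before export, read 12.06, 11.84 and 12.31 in NC and 12.18, 12.35 and 12.46 with apoM. Both had changes of about the same size, 0.27 and 0.26, with limma adjusted p-values of 0.451 and 0.457. NOP2, a cytosine methyltransferase of the large subunit rRNA, read 5.98, 5.85 and 6.47 in NC and 6.37, 6.23 and 6.30 with apoM. The highest of the 6 arrays was NC replicate 3, and the change was 0.20 (95% interval -0.22 to 0.62, limma adjusted p = 0.622). NIP7 and RRP1 had changes of 0.10 and 0.05, which turned to -0.07 and -0.08 with the gene span trend removed.

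**Figure D3:**
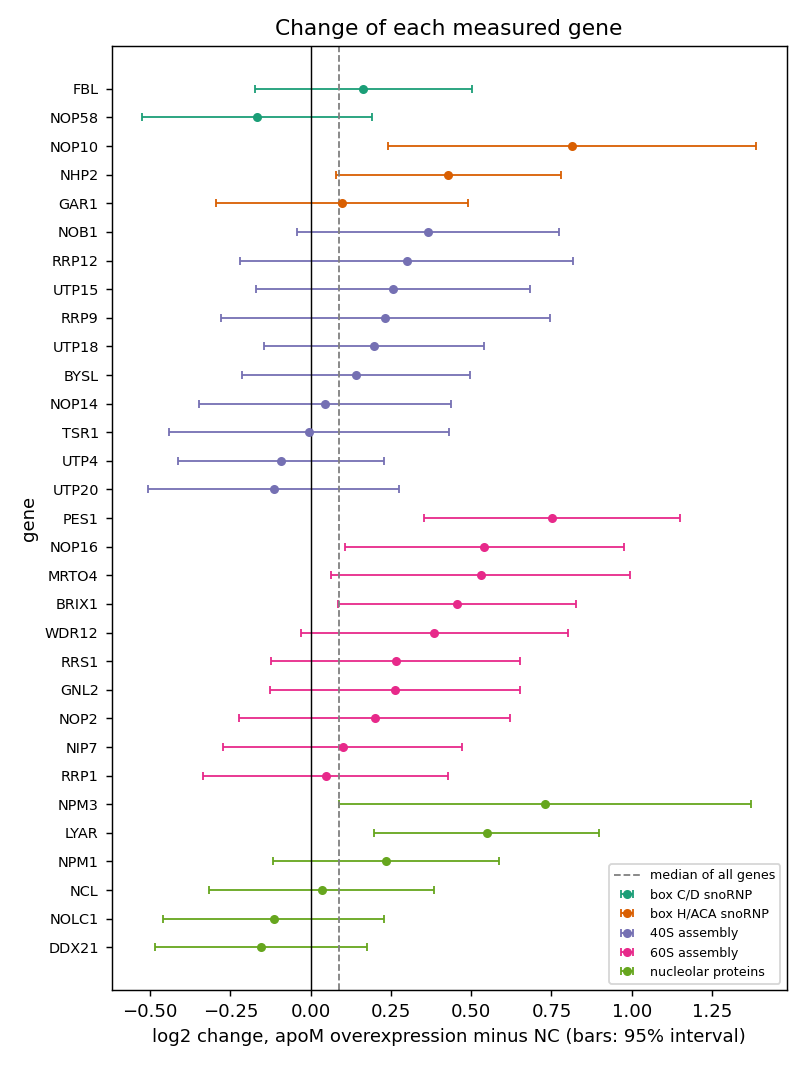
Log2 change, apoM overexpression minus NC, of the 31 measured genes with 95% intervals (bars), coloured by role, with the median change of all genes tested (0.09) as a dashed line. The 10 genes of 60S assembly lie above 0, and the intervals of 8 genes in the plot do not reach 0.

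In the box H/ACA snoRNP, which guides pseudouridine formation, all 3 measured core proteins had changes above 0, against 62.9% of all genes. Of them 2 were higher at an unadjusted p under 0.05, against 14.3% of all genes. NOP10, the smallest core protein, read 14.01, 14.52 and 15.13 in NC and 15.21, 15.37 and 15.52 with apoM. The NC arrays spread over more than a full log2 unit and NC replicate 3 lay just under the lowest apoM array. The change of 0.81, or 1.76-fold, was the largest of the 31 genes (SE 0.26, limma adjusted p = 0.119). Without NC replicate 3 it was 1.10 (adjusted p = 0.0172), and over all fits with 1 array left out it ran from 0.54 to 1.10. NHP2, another core protein of these particles, read 8.17, 7.96 and 8.29 in NC and 8.65, 8.54 and 8.53 with apoM. Here NC replicate 3 stayed clear of the apoM arrays, and the change was 0.43 (SE 0.16, limma adjusted p = 0.170). GAR1, the third of these proteins, had a change of 0.10 (95% interval -0.30 to 0.49, limma adjusted p = 0.820), which was -0.05 with the gene span trend removed.

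The box C/D proteins had changes in both directions and neither passed. FBL, fibrillarin, the methyltransferase of these particles, read 15.06, 15.27 and 15.19 in NC and 15.31, 15.44 and 15.26 with apoM. The groups overlapped slightly, through NC replicate 2 and apoM replicate 3. The change was 0.16 (95% interval -0.17 to 0.50, limma adjusted p = 0.614), and -0.04 with quantile normalization. FBL was carried by 13 features, of which the brightest, used here by rule, and 11 others have no mapped position in their names. The 1 mapped feature, at a mean of 14.65, gave 0.55 (adjusted p = 0.104), and 12 of the 13 had changes above 0, from 0.04 to 0.55, with the other at -0.47. NOP58, which scaffolds the same particle, read 14.14, 14.35 and 14.49 in NC and 14.26, 14.08 and 14.13 with apoM. Its change of -0.17 was the lowest of the 31 genes (95% interval -0.52 to 0.19, limma adjusted p = 0.628).

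Among factors of the small subunit processome and of 40S assembly, 0 of 10 measured genes were at an unadjusted p under 0.05. Over all genes 14.3% were higher and 4.85% lower at that level. A change above 0 was seen in 7 of the 10, against 62.9% of all genes. NOB1, the nuclease that makes the final cut at the end of the small subunit rRNA, read 12.79, 12.89 and 13.32 in NC and 13.38, 13.49 and 13.23 with apoM. It had the largest change of this group, 0.37 (SE 0.18, limma adjusted p = 0.313), with NC replicate 3 inside the range of the apoM arrays. UTP18 was the gene whose apoM arrays all lay above NC, at a change of 0.20 (limma adjusted p = 0.531). UTP4, a subunit of the complex that couples rRNA transcription to processing, was the gene whose apoM arrays all lay below, at -0.09 (limma adjusted p = 0.786). Its 6 values lay between 14.74 and 14.90. UTP15, of the same complex, had a change of 0.26, RRP9, a protein of the U3 snoRNP, of 0.23, and BYSL, a late 40S factor, of 0.14. NOP14, TSR1 and UTP20 had changes of 0.05, -0.005 and -0.11. The sign of each of these 3 turned when 1 array was left out, that of NOP14 also with the gene span trend removed, and that of TSR1 also with array weights. RRP12, an export factor, was the dimmest of the 31 genes at a mean of 4.87, under the median level of all genes, and the change of 0.30 on its brightest feature ran from 0.03 to 0.36 over its 4 features.

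The abundant nucleolar proteins had small changes in both directions. LYAR and NPM3, the dimmest of the 6 measured genes of this group, were higher at an unadjusted p under 0.05. At that level 14.3% of all genes were higher. NCL, nucleolin, read 16.13, 16.16 and 16.30 in NC and 16.22, 16.09 and 16.39 with apoM. The groups overlapped over almost their whole range, and the change was 0.03 (95% interval -0.32 to 0.39, limma adjusted p = 0.934), or -0.24 with quantile normalization. NPM1, nucleophosmin, was the brightest of the 31 genes at a mean of 18.16 and had a change of 0.24 (95% interval -0.12 to 0.59, limma adjusted p = 0.461). Its apoM arrays all lay above NC, but the gap between NC replicate 3 (18.2097) and apoM replicates 1 and 2 (18.2121 on both) was far below the spread within NC. A second feature named NPM1, without a gene ID, gave -0.83, and the gene table names 50 NPM1 pseudogenes whose transcripts such probes may read, so that its value is uncertain. DDX21, an RNA helicase, had a change of -0.15 with all apoM arrays below NC, and NOLC1, a chaperone of snoRNPs, of -0.12 with overlapping groups. Neither was near the threshold (limma adjusted p = 0.628 and 0.744).

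LYAR, a nucleolar zinc finger protein that promotes rRNA processing, read 11.63, 11.53 and 11.84 in NC and 12.23, 12.28 and 12.13 with apoM. The gap between the groups was about as wide as the range within NC, and the change was 0.55, or 1.46-fold (SE 0.16, limma adjusted p = 0.0928). At the threshold of 0.05 it passed only where just the genes above the median level were tested (adjusted p = 0.0498). There 10.3% of genes passed. NPM3, a relative of nucleophosmin, read 8.60, 9.24 and 9.87 in NC and 9.98, 10.18 and 9.73 with apoM. The groups overlapped, since NC replicate 3 lay above apoM replicate 3, and the change was 0.73 (SE 0.29, limma adjusted p = 0.200). It was 1.05 without NC replicate 3 (adjusted p = 0.0329) and 0.41 without NC replicate 1 (adjusted p = 0.488).

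The listed genes of the shortest spans had the largest median change, as did the shortest protein-coding genes above the median level. Gene spans, which include introns, come from the GRCh38.p14 gene table, and the bins below were set with these data in view. The 6 measured genes under 5 kb had a median change of 0.48 and 4 of them, NOP10, NPM3, NHP2 and NOP16, were at an unadjusted p under 0.05. Of 1047 protein-coding genes under 5 kb and above the median level, 390 were higher at that level. The 12 genes from 5 to 20 kb had a median of 0.18 and the 13 longer ones 0.20, among which PES1 and LYAR span 30.4 and 22.4 kb. For the brighter protein-coding genes the medians in these bins were 0.29, 0.18 and -0.001. For the 100 other ribosome biogenesis genes they were 0.325, 0.377 and 0.088, over 2, 38 and 60 genes, so that their middle bin was the highest. Across the 31 genes Spearman's rho of change with span was -0.38. It was -0.5 over the other ribosome biogenesis genes and -0.35 over the 10839 brighter protein-coding genes, all read from the same 6 arrays. With the span trend removed over protein-coding genes the median change of the 31 was 0.11, against -0.005 for all protein-coding genes, and 4 rather than 8 were at an unadjusted p under 0.05. The share of protein-coding genes at that level in this fit was not taken, so that the drop from 8 to 4 cannot be set against theirs.

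**Figure D4:**
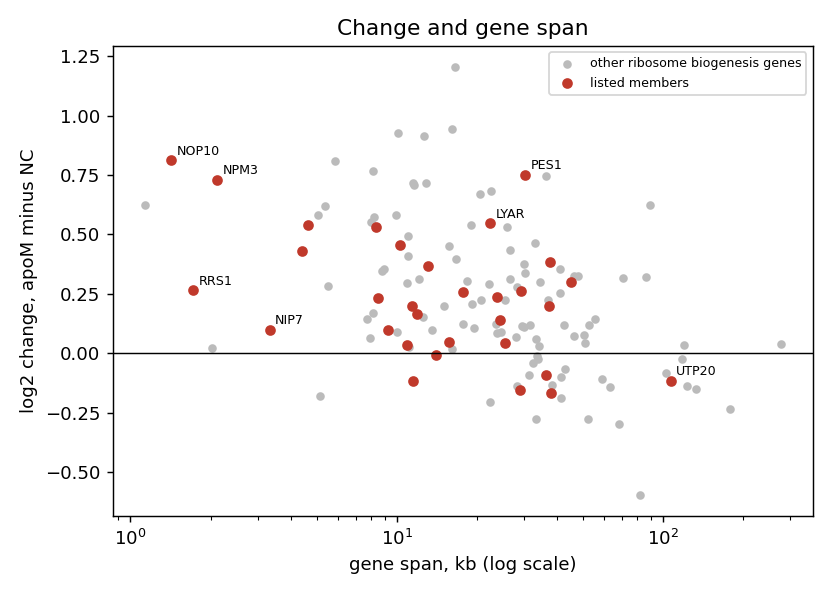
Log2 change, apoM overexpression minus NC, against gene span in kb on a log axis, for the 31 listed genes (red) and 100 other ribosome biogenesis genes (grey). Of the 3 listed genes that lie highest, NOP10 and NPM3 are short and PES1, which lies between them, is longer, and the longest listed gene, UTP20 at 106.5 kb, lies at -0.11.

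Of 106 further ribosome biogenesis genes 100 were measured, none passed the adjusted threshold in limma, and 26 were higher and 1 lower at an unadjusted p under 0.05, where 14.3% of all genes were higher and 4.85% lower. Their median change was 0.19, against 0.09 over all genes, and 78 of the 100 had a change above 0, against 62.9% of all genes. The lower one was URB1, a pre-60S factor, at -0.59 (limma adjusted p = 0.183). DDX56, a 60S helicase, came nearest to the threshold with a change of 0.77 (SE 0.17, adjusted p = 0.0532). It read 11.00, 11.20 and 11.48 in NC and 12.03, 12.08 and 11.87 with apoM. SNU13, the box C/D core protein that binds the kink-turn, had the largest change, 1.20 (SE 0.29, adjusted p = 0.0600). It read 11.60, 12.29 and 12.74 in NC and 13.73, 13.51 and 13.00 with apoM, so that the groups were apart. EIF6, which keeps the subunits from joining, had a change of 0.81 and NSA2, a pre-60S factor, of 0.72. The exosome subunits EXOSC1 and EXOSC7, which trim rRNA, had 0.93 and 0.74, FTSJ3, an rRNA methyltransferase, 0.57, and RUVBL1, an ATPase that assembles snoRNPs, 0.62. The adjusted p-values of these 6 ran from 0.0606 to 0.0841, and every apoM array lay above every NC array for each of them. Without NC replicate 3, 12 of the 100 passed, where 7.01% of all genes did. With trend and robust 5 passed, against 3.72% of all genes, and with array weights 6, against 4.99%. When only genes above the median level were tested 8 passed, against 10.3% of the genes in that fit.

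MYC was bright and its groups overlapped, at 13.97, 13.96 and 13.89 in NC and 13.98, 14.10 and 13.76 with apoM. The change was 0.01 (95% interval -0.34 to 0.35, limma adjusted p = 0.991), and -0.03 and -0.18 with array medians subtracted and with quantile normalization. MAX, its partner, had a change of 0.05 (limma adjusted p = 0.903), and -0.009 with quantile normalization. None of the 8 genes of this list, which holds MYCN and the MXD and MNT antagonists too, passed in limma or was at an unadjusted p under 0.05. The 15 measured listed genes with an E-box in a promoter window had a median change of 0.20, with 4 at an unadjusted p under 0.05, and the 12 without one had 0.31, also with 4. This difference was not tested, and over all genes 14.3% were higher at that level, with a median change of 0.09.

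Some snoRNAs that lie inside these genes had larger changes than their hosts. In the GRCh38.p14 annotation, 24 snoRNA genes lie within the span of 7 listed genes, and 13 of them were measured; the table gives no strand, so position alone was used. Of the 13, 4 rose past the adjusted threshold in limma and none fell, and the groups were apart in 7, all higher with apoM. Of all 247 snoRNA and scaRNA genes tested, 26.3% passed and 43.3% were higher with groups apart, so that rises were common in this class at large. Whether the 13 differ from the class was not tested. Inside NCL, SNORD82 rose from 15.29, 16.32 and 17.18 in NC to 18.44, 18.42 and 17.88 with apoM, by 1.98 (SE 0.39, adjusted p = 0.0395). SNORA75, in the same host, read 8.70, 8.50 and 8.83 in NC and 11.04, 10.32 and 9.52 with apoM, and rose by 1.62 (adjusted p = 0.0395). SNORD20, also within NCL, had a change of -0.04, so that the snoRNAs of 1 host did not move alike.

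Inside NOP58, SNORD70 rose by 1.80, from 9.10, 9.61 and 10.13 in NC to 11.80, 11.48 and 10.97 with apoM (adjusted p = 0.0241). SNORD11 and SNORD11B had changes of 1.68 and 1.01, with adjusted p-values of 0.0508 and 0.0928. For these 3 the change exceeded that of NOP58 by 1.97, 1.85 and 1.18, and for SNORD82 and SNORA75 it exceeded that of NCL by 1.95 and 1.58. In TSR1, SNORD91B had a change of 0.82 and SNORD91A of 0.01. Taken on each array, the snoRNA minus its host was higher on every apoM array than on every NC array in 6 of the 8 measured pairs, and the groups overlapped for SNORD20 and SNORD91A. The snoRNAs of those 6 pairs also had their own groups apart, and the hosts changed little (NOP58 by -0.17, NCL by 0.03, TSR1 by -0.005). The count by pair thus adds nothing to theirs, and it was not taken for snoRNAs in other hosts. Of all 247 snoRNA and scaRNA genes tested, 81.4% had a change above 0 and 43.3% were higher with groups apart. These differences between snoRNA and host are a description and were not tested. The fourth rise was SNORD92 at 2.47 (adjusted p = 0.0265), within WDR43, which was not analysed here. The rest had changes from -0.12 to 0.63.

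**Figure D5:**
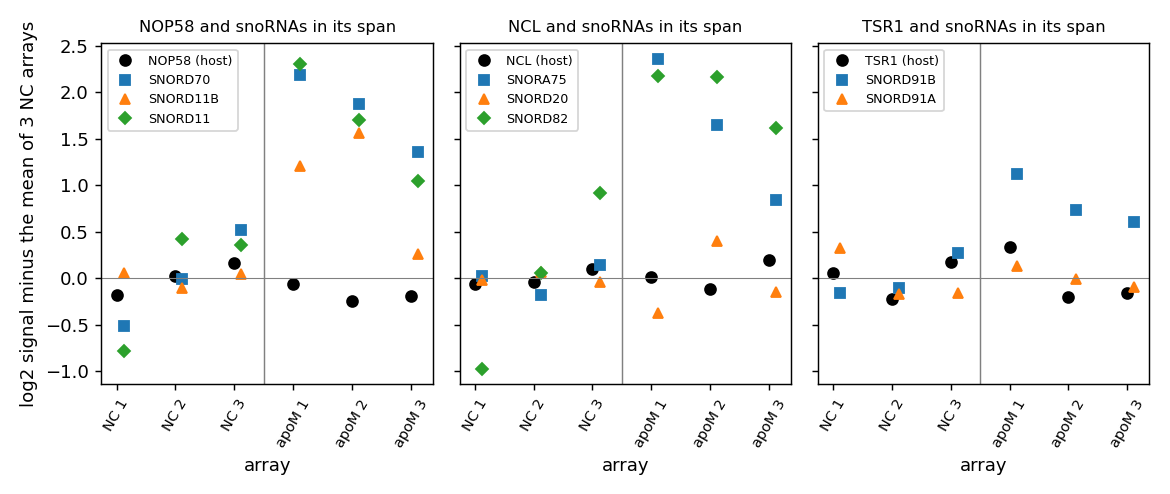
Log2 signal minus the mean of the 3 NC arrays on each array for NOP58, NCL and TSR1 (black circles) and for the measured snoRNAs within their spans (coloured symbols). The hosts stay near 0 on all 6 arrays, while SNORD70, SNORD11, SNORA75 and SNORD82 lie well above 0 on the apoM arrays and SNORD20 and SNORD91A do not.

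Cytosolic ribosomal protein genes, the products that these factors assemble, had a median change of 0.75 over the 51 measured of 79 listed genes, against 0.09 over all genes tested. At an unadjusted p under 0.05, 40 were higher and 1 lower, where 14.3% of all genes were higher and 4.85% lower, and 4 passed the adjusted threshold in limma, where 2.06% of all genes did. Centred on each gene's mean, their medians stood at -0.77, -0.37 and 0.006 in NC, and at 0.37, 0.44 and 0.23 with apoM. The median span of the ribosomal protein genes was 5.01 kb, against 14.1 kb for the 31 ribosome biogenesis genes. The difference between the lists was not tested.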

How the data were processed

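Total RNA was labelled with biotin and hybridised to Affymetrix arrays, per the labels' protocols. Affymetrix Expression Console was used by the authors to make the deposited log2 values, as the submitters' processing notes list it; version, normalization and build: not given in the sources used here. The log2 scale was judged from the range of the values. No further normalization was applied, and the table holds no detection calls. Features were named through the platform annotation (36176 with 1 symbol, 1119 with several, 98455 unnamed here), and 25516 were matched by gene ID and 9899 by symbol only to GRCh38.p14. The feature with the highest mean stood for each gene.

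Differences were tested over 33616 genes with limma 3.58.1 in R 4.3.3 (eBayes after lmFit, two-sided, Benjamini-Hochberg, threshold 0.05). On simulated data of the same 33616 genes and 3 against 3 arrays, 2% of planted log2 changes of 0.5, 74% of 1 and 100% of 2 were recovered, with 13 false calls. Few single changes of 0.5 were thus called in that setting. The changes were planted in a small part of the genes, with normal noise drawn separately for each gene and array. In the real data 691 genes passed and NC replicate 3 was often the highest NC array, so that recovery there may differ. Replicate numbers were not used to pair the arrays in the main fit. Deviations of same-numbered arrays correlated at -0.07, 0.03 and -0.07, and those of other pairs between -0.05 and 0.12. With 3 arrays a group these values cannot show whether arrays were processed together.

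The members, the other gene lists and the tests were chosen with earlier results of these data known. Values on every array are given for the 12 measured genes with the smallest p and the first of each of 5 role groups where measured; further genes are given by range, extremes and counts, with up to 8 other pathway genes, MYC and MAX, and snoRNAs within the listed genes. The tables give no strand for most snoRNAs, so that the strand asked for in that rule was not applied. Values of UTP18, UTP4, NOP58, NPM1, URB1 and the comparisons by span and E-box were picked after the data were seen.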

Additional observations from a re-analysis of the deposited data

How the results depend on the processing

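The median change of the 31 genes stayed above 0 in every fit, from 0.112 to 0.354 with 1 array left out, and that of the 100 other pathway genes from 0.148 to 0.242. With 1 array left out the median over all genes tested was also above 0, from 0.077 to 0.112. Without NC replicate 2 it was 0.084, against 0.112 for the 31 genes. APOM ran from 9.51 to 10.02. The count of listed genes past the threshold was 0 in the fit reported and 2 among genes above the median level, 1 with trend and robust, 1 with array weights, 2 at a threshold of 0.1 and from 0 to 4 with 1 array left out. For the other pathway genes these counts were 8, 5, 6, 12 and from 0 to 12. Over all genes 691 passed, against 1730 above the median level, 1251 with trend and robust, 1679 with array weights, 363 on features with a gene ID, 241 with the gene span trend removed over protein-coding genes, 2327 at a threshold of 0.1 and from 2 to 2358 with 1 array left out, the lowest without apoM replicate 1 (2) and NC replicate 2 (8) and the highest without NC replicate 3. With the replicate number as a replicate block 50 genes passed, none of them listed. This fit has fewer degrees of freedom, and the labels link such arrays by a number alone. Fewer genes tested or fewer arrays set some of these counts; otherwise the cause was not tested.

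Signs turned in the following cases, none of them past a threshold. With quantile normalization FBL was at -0.036, NCL at -0.242, MYC at -0.177 and MAX at -0.009. With array medians subtracted MYC was at -0.029. With the span trend removed GAR1 was at -0.052, NOP14 at -0.043, RRP1 at -0.077, NIP7 at -0.07, NCL at -0.107 and MYC at -0.151. With array weights TSR1 was at 0.06, and with the mean of its features NPM1 at -0.296. With 1 array left out, changes ran from -0.028 to 0.196 for GAR1, -0.244 to 0.029 for UTP20, -0.049 to 0.2 for NOP14, -0.178 to 0.093 for TSR1, -0.09 to 0.129 for RRP1, -0.046 to 0.108 for NCL, -0.071 to 0.099 for MYC and -0.015 to 0.139 for MAX. The version with mapped features only was chosen after seeing the data.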
